A study of Mus musculus with 2 samples.

Results

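Peaks of open chromatin at the promoters of long noncoding RNA (lncRNA) genes were described in mouse embryos. A replicate 1 peak was a member when it lay on chromosomes 1 to 19 and shared 1 bp or more with a peak of replicate 2. Its midpoint also had to lie within 500 bp of a transcription start site (TSS) of a lncRNA gene of the GENCODE M21 annotation and over 1 kb from every protein-coding TSS. The gene types used were lincRNA (between coding genes), antisense, processed transcript and bidirectional promoter lncRNA. Of 158585 peaks found in both replicates on these chromosomes, 2572 (1.62%) met the rule. The data came from DNase-seq, which sequences the ends left where DNase I cleaves DNA that nucleosomes do not shield. The samples were 2 biological replicates of 1 group, embryos of 11 days of the B6NCrl strain, males and females pooled, labelled healthy and with no treatment named. Per the labels each replicate has its own biosample entry, and both cite 1 donor entry. Each embryo sample mixes all its tissues, so a missing peak concerns the mixture as a whole, while a peak does not say in which cells the site was open. With a single group there was no contrast between conditions, and each difference between sets of peaks is given as a description, with both replicates side by side and no test.

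LncRNA genes are transcribed by RNA polymerase II, and many of their transcripts are spliced and polyadenylated without encoding a protein. Some act through the RNA itself, some serve as hosts for small nucleolar RNAs or microRNAs that are cut from their introns or exons, and at others the act of transcription affects a neighbouring gene. Many lncRNA genes of the embryo lie beside genes for developmental transcription factors, and a number of lncRNAs come from the Hox clusters and from imprinted regions, where 1 parental copy is silenced.

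Sequences of 10 member peaks are shown because they carry the range of promoter types described below, from CpG-rich promoters with repeated motifs to low-scoring CpG-poor ones. They were read from the mm10 reference on the strand of the lncRNA, and capitals mark matches to 15 short motifs searched on both strands. Promoter motifs were the GC box with the letters GGGCGG, the CCAAT box spelled as its name, the TATA box spelled TATAAA and the sites for ETS factors (CCGGAAG), for the cyclic AMP response (CRE, spelled TGACGTCA), for NRF1 (spelled TGCGCATGC) and for YY1 (spelled AAGATGGCG). The others were the core for CTCF (spelled CNAGGGGGC), the E-box of muscle and neural factors (CAGCTG), the homeodomain site (TAATTA), the SOX site (ACAAAG), the GATA site (AGATAA), the TEAD site (CATTCC), the AP-1 site (TGACTCA) and a common splice donor (GGTAAG). None of these contains another. A match describes letters and is no measured binding site.

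The first group holds the best-ranked peaks of a small nucleolar RNA host (Snhg15, chr11:6528756-6528905, minus strand), a microRNA host (Dleu2, chr14:61648776-61648925, minus strand) and a widely expressed lncRNA (1810026B05Rik, known as Chaserr, chr7:73558636-73558785, minus strand).
Snhg15: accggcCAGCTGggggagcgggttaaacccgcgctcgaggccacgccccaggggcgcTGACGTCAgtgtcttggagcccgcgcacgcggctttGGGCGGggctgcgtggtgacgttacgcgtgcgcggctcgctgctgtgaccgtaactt
Dleu2: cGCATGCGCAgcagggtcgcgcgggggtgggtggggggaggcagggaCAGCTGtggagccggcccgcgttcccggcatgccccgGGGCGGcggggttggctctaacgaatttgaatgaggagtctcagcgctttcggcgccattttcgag
1810026B05Rik: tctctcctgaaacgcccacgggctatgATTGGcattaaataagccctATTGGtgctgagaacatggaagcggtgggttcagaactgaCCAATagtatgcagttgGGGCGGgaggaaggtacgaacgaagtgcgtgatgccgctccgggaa
Snhg15 held a GC box and a full CRE, a motif found in 0.603% of all shared peaks. Dleu2 held an NRF1 motif on the other strand at bases 2 to 10, found in 0.415% of all shared peaks, beside a GC box at bases 85 to 90. The 1810026B05Rik peak held a GC box and 3 CCAAT boxes.

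The second group comes from imprinted, Hox and neural loci: Nespas (chr2:174295456-174295605, minus strand), Haglr (chr2:74749936-74750085, minus strand) and A830082K12Rik (chr13:78201656-78201805, plus strand).
Nespas: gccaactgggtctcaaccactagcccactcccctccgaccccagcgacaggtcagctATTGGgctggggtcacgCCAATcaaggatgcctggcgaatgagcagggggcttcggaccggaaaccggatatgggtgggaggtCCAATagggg
Haglr: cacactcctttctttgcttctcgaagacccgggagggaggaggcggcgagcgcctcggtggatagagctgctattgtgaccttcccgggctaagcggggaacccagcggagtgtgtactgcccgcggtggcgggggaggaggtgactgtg
A830082K12Rik: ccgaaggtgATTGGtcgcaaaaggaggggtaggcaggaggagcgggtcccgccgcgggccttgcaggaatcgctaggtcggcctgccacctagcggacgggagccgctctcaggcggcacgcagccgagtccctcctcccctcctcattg
Nespas held 3 CCAAT boxes in 150 bp, A830082K12Rik held 1, and Haglr held none of the 15 motifs. The midpoint of the Haglr peak lay 495 bp downstream of the nearest Haglr TSS, near the limit of the window.

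The third group holds a peak of the mesoderm and endoderm list, at Hand2os1 (chr8:57314376-57314525, minus strand), and the best-ranked stem cell and immune peaks, at Platr22 (chr1:136696256-136696405, plus strand) and Mir155hg (chr16:84703256-84703405, plus strand). With them stands the best-ranked CpG-poor member, Gm15287 (chr13:111725416-111725565, plus strand).
Hand2os1: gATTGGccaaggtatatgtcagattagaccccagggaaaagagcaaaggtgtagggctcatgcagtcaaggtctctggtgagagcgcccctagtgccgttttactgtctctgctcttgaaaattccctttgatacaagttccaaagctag
Platr22: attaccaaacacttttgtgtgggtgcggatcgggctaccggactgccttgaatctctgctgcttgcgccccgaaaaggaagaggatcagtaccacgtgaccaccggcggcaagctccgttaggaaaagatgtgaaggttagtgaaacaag
Mir155hg: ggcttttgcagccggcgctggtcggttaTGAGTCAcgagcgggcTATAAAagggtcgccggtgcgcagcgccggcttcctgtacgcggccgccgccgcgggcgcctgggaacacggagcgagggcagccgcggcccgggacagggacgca
Gm15287: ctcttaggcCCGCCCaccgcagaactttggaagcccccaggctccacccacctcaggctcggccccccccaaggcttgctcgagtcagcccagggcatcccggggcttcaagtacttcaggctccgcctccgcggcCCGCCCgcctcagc
Mir155hg was the only peak of the 10 with a TATA box, at bases 45 to 50, and it also held an AP-1 motif at bases 29 to 35. The midpoint of this peak lay 164 bp downstream of the nearest annotated Mir155hg TSS, so both motifs lie downstream of that TSS. Gm15287 held 2 GC boxes although the sequence around it fell outside the CpG-rich class defined below. Hand2os1 held 1 CCAAT box and Platr22 held no motif.

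Members came from 1893 lncRNA genes, counting for each peak the gene with the nearest TSS, and 1931 genes had at least 1 member peak within 500 bp of a TSS. By the type of the nearest gene, 1621 members belonged to lincRNAs, 599 to antisense genes, 343 to processed transcripts and 9 to bidirectional promoter lncRNAs. Of the 1931 genes, 1403 had 1 member peak, 394 had 2 and 102 had 3. Some members overlapped each other: 117 did, and merging them left 2510 separate intervals.

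The label was checked against a second annotation. RefSeq held the symbol of the nearest gene for 1587 members and called that gene lncRNA for 1521 of them, protein-coding for 44 (25 genes) and a pseudogene for 20, while 985 members had a symbol that was not matched. The RefSeq-coding symbols included Zswim6 (scores of 140 in replicate 1 and 143 in replicate 2), Tctn2 (134 and 136) and Abhd1 (133 and 136), named after their values were seen. In addition, 154 members (5.99%) lay within 1 kb of the start of a RefSeq mRNA, predicted ones included, that GENCODE M21 does not place there. These 154 had higher median scores (77.5 and 90.5) than the other 2418 (59.5 and 70), and 37.7% of them were CpG-rich against 16.3%.

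Most lncRNA genes had no promoter peak at this stage. A gene was eligible when at least 1 of its TSSs lay over 1 kb from every protein-coding TSS. Of 7366 eligible genes, 1897 (25.8%) had a member peak, against 14689 of 20807 protein-coding genes (70.6%) with a shared peak at a TSS. Another 155 eligible lncRNA genes had a shared peak only within 1 kb of a coding TSS. Of the rest 191 had a peak in replicate 1 only, 326 in replicate 2 only, 24 had peaks in both that did not overlap, and 4773 (64.8%) had none. Processed transcripts had a member peak in 38.8% of cases, lincRNAs in 25.6% and antisense genes in 22.6%. Bidirectional promoter lncRNAs had one in 7 of 17 cases. A further 34 genes had a member peak although all their own TSSs lay within 1 kb of a coding TSS.

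Base composition divided the genes more than their type did. A TSS was called CpG-rich when the 250 bp to either side of it had at least 50% GC and an observed-to-expected CpG ratio of at least 0.6, the composition of a CpG island. Among eligible genes with such a TSS, 310 of 386 (80.3%) had a member peak, against 1587 of 6980 (22.7%) of the rest. Only 5.24% of eligible lncRNA genes had a CpG-rich TSS, while 57.9% of protein-coding genes did. The same division in protein-coding genes gave 98.5% and 32.2%. Genes with more annotated TSSs have more chances of a peak, so genes with 1 TSS were also set side by side. Of CpG-poor genes with 1 TSS, 19.2% of lncRNA genes and 19.3% of protein-coding genes had a shared peak. Of CpG-rich genes with 1 TSS, 74.2% of lncRNA genes and 93.5% of protein-coding genes had one. The share among eligible lncRNA genes rose with the number of TSSs, from 21.2% of the 5522 genes with 1 TSS to 64.9% of the 131 with 6 or more.

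Names reflect where a transcript was first found. Some RIKEN symbols carry the clone prefix of testis libraries, and 173 of 782 such eligible genes (22.1%) had a member peak. Other RIKEN clones had one in 299 of 674 cases (44.4%). Predicted genes with a Gm number had one in 22.5% of cases and the remaining symbols in 33.3%. Of the testis clones, 4.35% had a CpG-rich TSS, against 10.2% of the other RIKEN clones. Among the CpG-poor testis clones the share with a member peak was 19.3%.

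Member peaks gathered at the TSS itself. Within 100 bp of a lncRNA TSS there were 577 shared peaks per Mb of sequence lying over 1 kb from coding TSSs. Over the whole 500 bp window there were 299 per Mb, which was 3.47 times the 86.1 per Mb found at 4 to 5 kb from the same TSSs. All sequence over 1 kb from coding TSSs had 51.8 per Mb. Protein-coding TSSs had 1177 per Mb within 100 bp. The density fell without a step at 500 bp. The 323 members in the last 100 bp of the window had median scores of 57 in replicate 1 and 69 in replicate 2, and the 273 peaks in the next 100 bp, just outside, had 56 and 65.

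**Figure D1:**
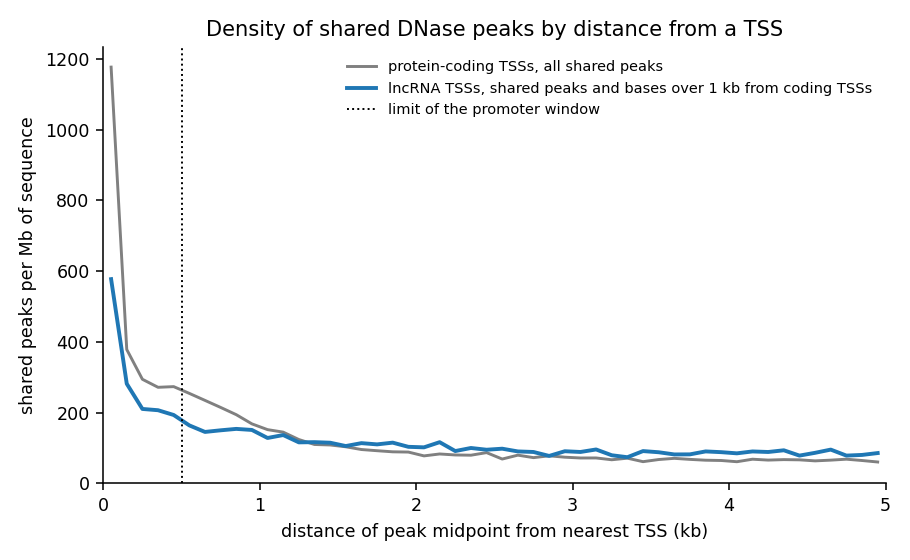
Shared DNase peaks per Mb of sequence in steps of 100 bp from the nearest lncRNA TSS (blue) and from the nearest protein-coding TSS (grey). The blue curve starts at 577 per Mb, less than the 1177 per Mb of coding TSSs, and passes the dotted limit of the promoter window at 500 bp without a step.

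Member midpoints lay a median of 34 bp upstream of the TSS, and 59.3% were upstream. The corresponding values for protein-coding promoter peaks, those within 500 bp of a coding TSS, were 17 bp and 58.7%. Members were more spread out, with 41.1% within 100 bp of the TSS against 55.4% of coding promoter peaks.

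Members scored between coding promoters and other distal sites. Other distal peaks were the 120111 shared peaks over 1 kb from every coding TSS that were no members. The deposited peak score is a whole number from 1 to 150. Members had a median score of 60 in replicate 1 (quartiles 43 and 86) and 71 in replicate 2 (51 and 97). The 26751 coding promoter peaks had medians of 97 and 108, and other distal peaks had 46 and 55. The order of the 3 sets was the same in both replicates, while their quartile ranges overlapped. Of the members, 447 (17.4%) had a mean rank percentile of 90 or more, the mean over both replicates of the rank of the score in its list. That share was 50.9% of coding promoter peaks and 4.55% of other distal peaks.

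The sets also differed in composition, so scores were compared within a CpG class, here taken from 250 bp to either side of the peak midpoint. CpG-rich peaks made up 453 of the members (17.6%), 61.8% of coding promoter peaks and 2.92% of other distal peaks. Among CpG-rich peaks the median scores in replicates 1 and 2 were 96 and 106 for members, 118 and 125 for coding promoters and 79 and 91 for other distal peaks. Among CpG-poor peaks they were 55 and 66 for members, 62 and 73 for coding promoters and 46 and 55 for other distal peaks. Members therefore kept the middle place in each class and replicate, and the gap to coding promoters was smaller than over all peaks.

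**Figure D2:**
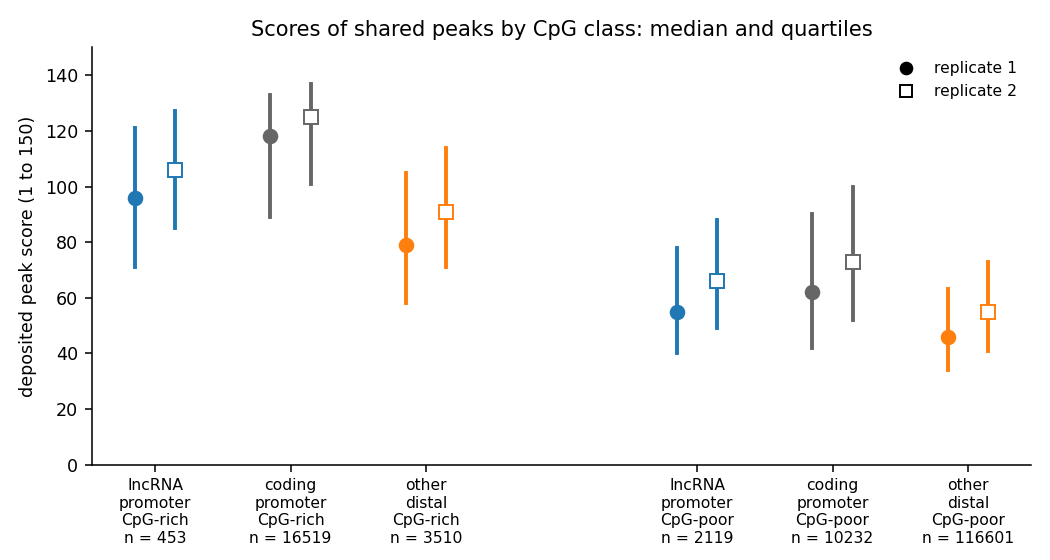
Median (symbol) and quartiles (line) of the deposited peak score for lncRNA promoter, protein-coding promoter and other distal peaks, split by CpG class, with filled circles for replicate 1 and open squares for replicate 2. In both classes the lncRNA promoter medians (96 and 106, 55 and 66) lie between those of the other sets.

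Hotspots, the broader regions of enriched cleavage, gave the same order. A hotspot at the ceiling of the deposited −log10 q value, 100, lay at 56.3% of members in replicate 1 and at 64.7% in replicate 2. For coding promoter peaks the shares were 84% and 88.3%, and for other distal peaks 38.7% and 46.4%. The summed width of the hotspots that a peak overlapped was also compared. Its median was 407.5 bp in replicate 1 and 542.5 bp in replicate 2 for members. It was 1076 and 1274 bp at coding promoters and 270 and 303 bp at other distal peaks.

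Both replicates ordered the members alike. Spearman's rho between their scores was 0.951 over 2572 members, a correlation across peaks of 1 pair of libraries. The score was higher in replicate 2 for 2196 members, equal for 71 and lower for 305, with a median difference of 9. Coding promoter peaks and other distal peaks were also higher in replicate 2, by medians of 7 and 8. Of the replicate 1 peaks that met the distance rule, 2572 of 3065 (83.9%) overlapped a replicate 2 peak, and of those of replicate 2, 2568 of 3368 (76.3%) overlapped a replicate 1 peak. Over all peaks these shares were 79.5% and 70.3%, at coding promoters 87.7% and 84.3%, and at distal peaks 77.9% and 67.8%. Peaks that did not overlap had lower median scores, 33 in replicate 1 and 40 in replicate 2.

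Most members stood outside coding genes. Between protein-coding genes lay 1992 (77.5%), in coding introns 455 (17.7%) and in coding exons 125 (4.86%). For other distal peaks these shares were 53.4%, 42.0% and 4.53%. The lincRNA type is itself defined by lying between coding genes, where 95.3% of lincRNA members and 29.1% of antisense members lay. Exonic members were CpG-rich in 47.2% of cases and intronic ones in 10.8%. The nearest coding TSS was a median of 29.8 kb away, against 28.4 kb for other distal peaks. It lay at 1 to 2.5 kb for 283 members (11.0%, against 9.13% of other distal peaks). For 50 members (1.94%, against 2.87%) none lay within 500 kb. The best-ranked of these 50 was at Gm38584, 741.8 kb from Arrdc4, with scores of 92 and 110. It was followed by Gm31378 (94 and 107) and by Rmst, a lncRNA of neural progenitors (93 and 105).

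Close to coding genes, lncRNAs mostly ran on the opposite strand. Of 479 members at 1 to 5 kb from a coding TSS, 427 (89.1%) belonged to a lncRNA transcribed against the direction of the nearest coding gene. Of these, 207 were upstream of the coding TSS and pointed away from it, and 220 lay downstream of it, antisense to the gene. At 5 to 50 kb the opposite strand was found for 57.9% of 1118 members and beyond 50 kb for 48.2% of 975. The antisense type is itself defined by overlap with a gene on the other strand.

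The letters of the member peaks lay between both other sets for most motifs. The GC box, bound by SP and KLF factors, was in 17.9% of members, 44.9% of coding promoter peaks and 8.04% of other distal peaks. The ETS motif was in 3.46%, 8.41% and 1.40%, and the CRE in 1.36%, 1.82% and 0.335% of these sets. Within CpG-rich peaks the GC box was in 43.7% of members, 58.6% of coding promoters and 37.1% of other distal peaks, and within CpG-poor peaks in 12.3%, 22.8% and 7.17%. CCAAT boxes differed less, with 18.8% of members, 20.5% of coding promoters and 16.97% of other distal peaks. Motifs typical of tissue-specific factors were nearer to the distal sites: the homeodomain motif was in 2.57% of members, 0.763% of coding promoters and 3.37% of other distal peaks, and the E-box in 16.8%, 10.9% and 18.5%. The AP-1 motif was above both other sets, in 4.08% of members, 1.61% of coding promoters and 3.53% of other distal peaks. The letters of a common splice donor were too, in 4.82% of members, 3.58% of coding promoters and 3.50% of other distal peaks. Among CpG-rich peaks they were in 2.87% of members and 2.875% of coding promoters, and among CpG-poor peaks in 5.24% and 4.71%. The CTCF core was below both other sets, in 1.91% of members, 2.84% of coding promoters and 2.38% of other distal peaks. So was the YY1 motif, in 0.156%, 1.05% and 0.178%. The NRF1 and YY1 motifs were in 10 and 4 members only.

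The 10 best-ranked members were all CpG-rich, with scores of 141 to 149 in replicate 1 and 143 to 148 in replicate 2. The first was at 5430416N02Rik, a lincRNA 13.4 kb from Sec31a, at chr5:100429536-100429685, with 146 and 148. Next came 1810059C17Rik (145 and 146) within an intron of Mllt10, 6720427I07Rik (145 and 145) and Gm10433 (149 and 144). The fifth was 1810026B05Rik (144 and 145), printed above, a lncRNA 16.9 kb from Chd2 that is known to restrain this chromatin remodeller gene. Zmiz1os1 (145 and 144) lay within 1 kb of a RefSeq mRNA start. The others were 1700096K18Rik (144 and 144), 2810410L24Rik (142 and 146), 1700012D14Rik (146 and 143) and 2900052L18Rik (141 and 146). Among CpG-poor members the best-ranked was at Gm15287, an antisense gene 24.7 kb from Mier3, with 145 and 142.

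Known lncRNAs were grouped by role. Of 132 symbols in 9 lists, 107 were genes of the 4 types on these chromosomes, 19 were not found under the symbol and 6 had another gene type. A member peak was found at 68 of the 107, and 16 more had a shared peak only within 1 kb of a coding TSS, which the rule leaves out. Of the remaining genes 7 had a peak in replicate 2 only, none in replicate 1 only, and 16 had no peak. Of the 95 eligible list genes 68 had a member peak, where 25.8% of all eligible genes did. List genes had a median of 4 TSSs and a CpG-rich TSS in 37.9% of cases, against 1 and 5.24% over all eligible genes, and the part of these in the difference was not tested. Within the classes, 34 of 36 list genes with a CpG-rich TSS and 34 of 59 others had a member peak (57.6%, against 22.7% of all CpG-poor eligible genes).

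**Figure D3:**
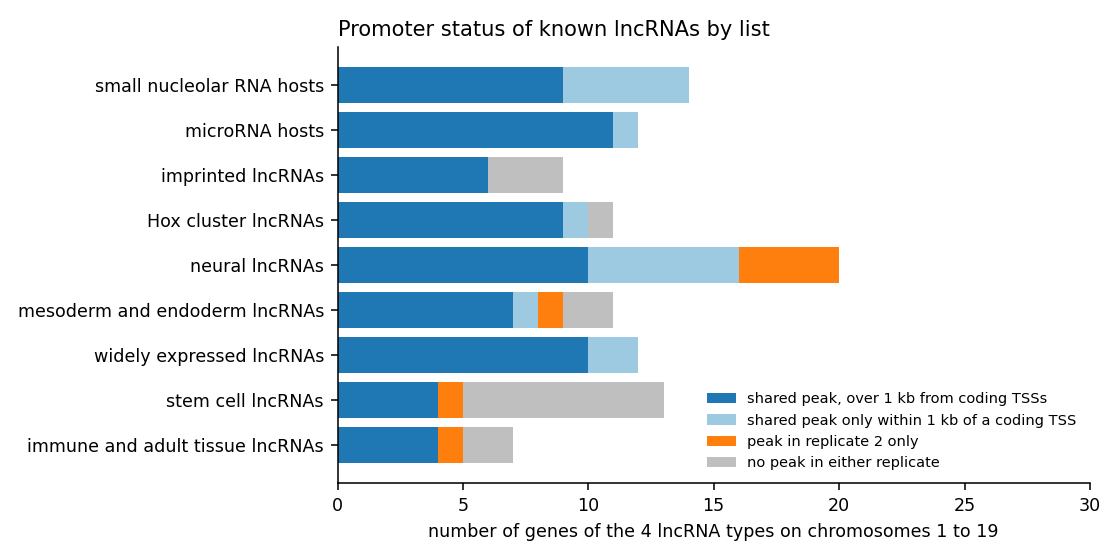
Number of genes in each list of known lncRNAs with a shared promoter peak over 1 kb from coding TSSs (dark blue), only within 1 kb of one (light blue), with a peak in replicate 2 only (orange) or with no peak (grey). All 14 small nucleolar RNA hosts and all 12 microRNA hosts had a shared peak, and 8 of 13 stem cell lncRNAs had none. Of all eligible lncRNA genes 64.8% had none.

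Small nucleolar RNA hosts had high scores. They are transcribed in most growing cells, and their introns release RNAs that guide the modification of ribosomal RNA. Of 14 genes, 9 had a member peak and the other 5 (Snhg1, Snhg3, Snhg9, Snhg18 and Zfas1) had a shared peak within 1 kb of a coding TSS. Of the 10 eligible hosts 9 had a member peak, against 25.8% of all eligible genes. Snhg15 scored 141 in replicate 1 and 145 in replicate 2, Snhg20 141 and 136, Snhg6 136 and 138 and Snhg8 136 and 135. Snhg5 (136 and 132), Snhg12 (130 and 132), Epb41l4aos (129 and 131) and Snhg17 (122 and 128) followed. These 8 were CpG-rich, and all but Snhg17 lay above 126, the upper quartile of coding promoter peaks in replicate 1. Gas5, a growth arrest lncRNA with 20 annotated TSSs, had 40 and 55 at its best member peak. That peak was CpG-poor and lay 1.78 kb from the TSS of Zbtb37. The rule leaves out any Gas5 peak within 1 kb of a coding TSS, so these scores need not be those of its strongest promoter.

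MicroRNA hosts spanned a wide range. Of 12 genes 11 had a member peak, and Mir22hg had a shared peak near a coding TSS. These 11 were all the eligible genes of the list, and 25.8% of all eligible lncRNA genes had a member peak. Dleu2, which hosts miR-15a and miR-16-1, led with 131 and 137, followed by Mir670hg (125 and 129) and Dnm3os (120 and 128), the host of the miR-199a and miR-214 pair in mesenchyme. Mir99ahg scored 110 and 125 and C130071C03Rik, a miR-9 host beside Mef2c, 106 and 121. The other neural hosts were Mir124-2hg (93 and 103), Mir9-3hg (85 and 101) and Mir124a-1hg (81 and 86). Mir17hg, the host of the miR-17 to miR-92 cluster, had a CpG-poor best peak of 57 and 54.

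Blood cell and adult tissue lncRNAs had median scores of 68.5 in replicate 1 and 70.5 in replicate 2 at the best peak of each gene. All members had medians of 60 and 71. Mir155hg, a host active in lymphoid cells, scored 87 and 94, and Mir142hg, a blood cell host, scored 68 and 52. Gm19705 (69 and 89) and Ptgs2os2 (46 and 51) completed the 4 of 7 genes with a member peak, where 25.8% of all eligible genes had one. Mirt1 had a peak in replicate 2 only, and Ifngas1 and Mirt2 had none.

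Imprinted lncRNAs had member peaks at 6 of 9 genes, all 9 eligible, where 25.8% of all eligible genes had one. Nespas, antisense to Nesp at the Gnas locus, scored 127 and 129, and Kcnq1ot1, which silences its neighbours on the paternal copy, scored 127 and 127. Airn, the antisense transcript of Igf2r, scored 109 and 116. H19 (105 and 102), Meg3 (91 and 100) and Mirg (48 and 67) are expressed from the maternal copy. Of the 6 peaks only that of Nespas was CpG-rich, by the class taken around the peak midpoint. By the class taken around a TSS, H19, Kcnq1ot1 and Meg3 had a CpG-rich TSS too. Rian, Nctc1 and Snhg14 had no peak, although Rian had 19 annotated TSSs and Snhg14 had 15. Rian and Mirg are parts of the long transcript that starts at Meg3. The lists do not separate the parental copies.

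Hox cluster lncRNAs had member peaks at 9 of 11 genes, all 11 eligible, where 25.8% of all eligible genes had one. The highest was Haglr of the Hoxd cluster, with 116 and 132, printed above. Hoxaas3 (114 and 123), Hoxb3os (111 and 118), Hoxd3os1 (108 and 122), Hoxb5os (109 and 106) and Hoxaas2 (91 and 98) also scored above the member medians in both replicates. The Hoxb5os peak was 50 bp from a RefSeq mRNA start. Halr1 (73 and 76) was above both medians. Hottip (53 and 70) and Hotairm1 (46 and 58) were below them, and the Hottip peak lay 1.97 kb from the TSS of Hoxa13. Hoxa11os had a shared peak near a coding TSS. Hotair, a lncRNA of the Hoxc cluster expressed in the posterior body, had none in either replicate.

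Neural lncRNAs had member peaks at 10 of 15 eligible genes, where 25.8% of all eligible genes had one. Of all 20 genes in the list 10 had a member peak. Another 6 had a shared peak only within 1 kb of a coding TSS, which the rule leaves out. The other 4 (Dlx6os1, Pax6os1, Nkx2-2os and 3110039M20Rik) had a peak in replicate 2 only. A830082K12Rik, antisense and 1.97 kb from the TSS of Nr2f1, led with 132 and 138. Miat scored 99 and 125, Six3os1 97 and 106, Rmst 93 and 105 and Otx2os1 90 and 105. 2610307P16Rik, nearest to Sox4, had the widest gap between replicates in this list, 83 and 118. Pantr1 (88 and 99) and Pantr2 (85 and 107) lie beside Pou3f3, Sox2ot had a best peak of 90 and 95, and Dlx1as had 69 and 88.

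Mesoderm and endoderm lncRNAs had member peaks at 7 of 11 genes, and the best peak of each was CpG-poor. All 11 genes were eligible, and 25.8% of all eligible lncRNA genes had a member peak. Carmn, the host of miR-143 and miR-145 in smooth muscle and heart, scored 108 and 110. Hand2os1, upstream of the heart and limb gene Hand2, scored 73 and 82, Bvht (Braveheart) 67 and 84 and Tbx3os1 60 and 77. Hnf1aos1 (45 and 57), Wt1os (41 and 52) and Chaer1 (38 and 48) were below the member medians in both replicates. Foxl2os had a shared peak near a coding TSS. Fendrr, a lncRNA of the lateral mesoderm, had a peak in replicate 2 only, and Mhrt, an adult heart lncRNA, and Hnf4aos had none.

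Widely expressed lncRNAs had member peaks at 10 of 12 genes, and Tug1 and Cep83os had a shared peak near a coding TSS. Of the 11 eligible genes 10 had a member peak, against 25.8% of all eligible genes. After 1810026B05Rik came Crnde (137 and 141), 1.41 kb from Irx5, Dancr (134 and 131), Lockd (130 and 126) downstream of Cdkn1b, and Neat1 (128 and 133), the scaffold of paraspeckles. The Neat1 peak lay 433 bp upstream of a Neat1 TSS and nearer to a TSS of another lncRNA, Frmd8os. Malat1, an abundant nuclear RNA, scored 121 and 127 at a CpG-poor peak. 2900097C17Rik (106 and 116), Pvt1 (97 and 103) near Myc, and Lncpint (92 and 102, at a peak nearer to a TSS of 2210408F21Rik) followed, and the p53 target Trp53cor1 was lowest with 62 and 77.

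Stem cell lncRNAs had the lowest median scores of the lists, 36.5 in replicate 1 and 46.5 in replicate 2. Platr genes were named for their link to pluripotency in embryonic stem cells, and 4 of 13 in the list had a member peak. Of the 12 eligible ones 4 had one, near the 25.8% of all eligible genes. Over all eligible genes 64.8% had no peak, so the list stood out by its scores rather than by its count. Platr22 scored 47 and 66, Platr14 39 and 44, Platr26 34 and 49 and Platr27 31 and 29. All 4 were CpG-poor and below the member medians in both replicates. Platr6 had a peak in replicate 2 only, and Platr3, Platr4, Platr5 and Platr7 were among the 8 with none.

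**Figure D4:**
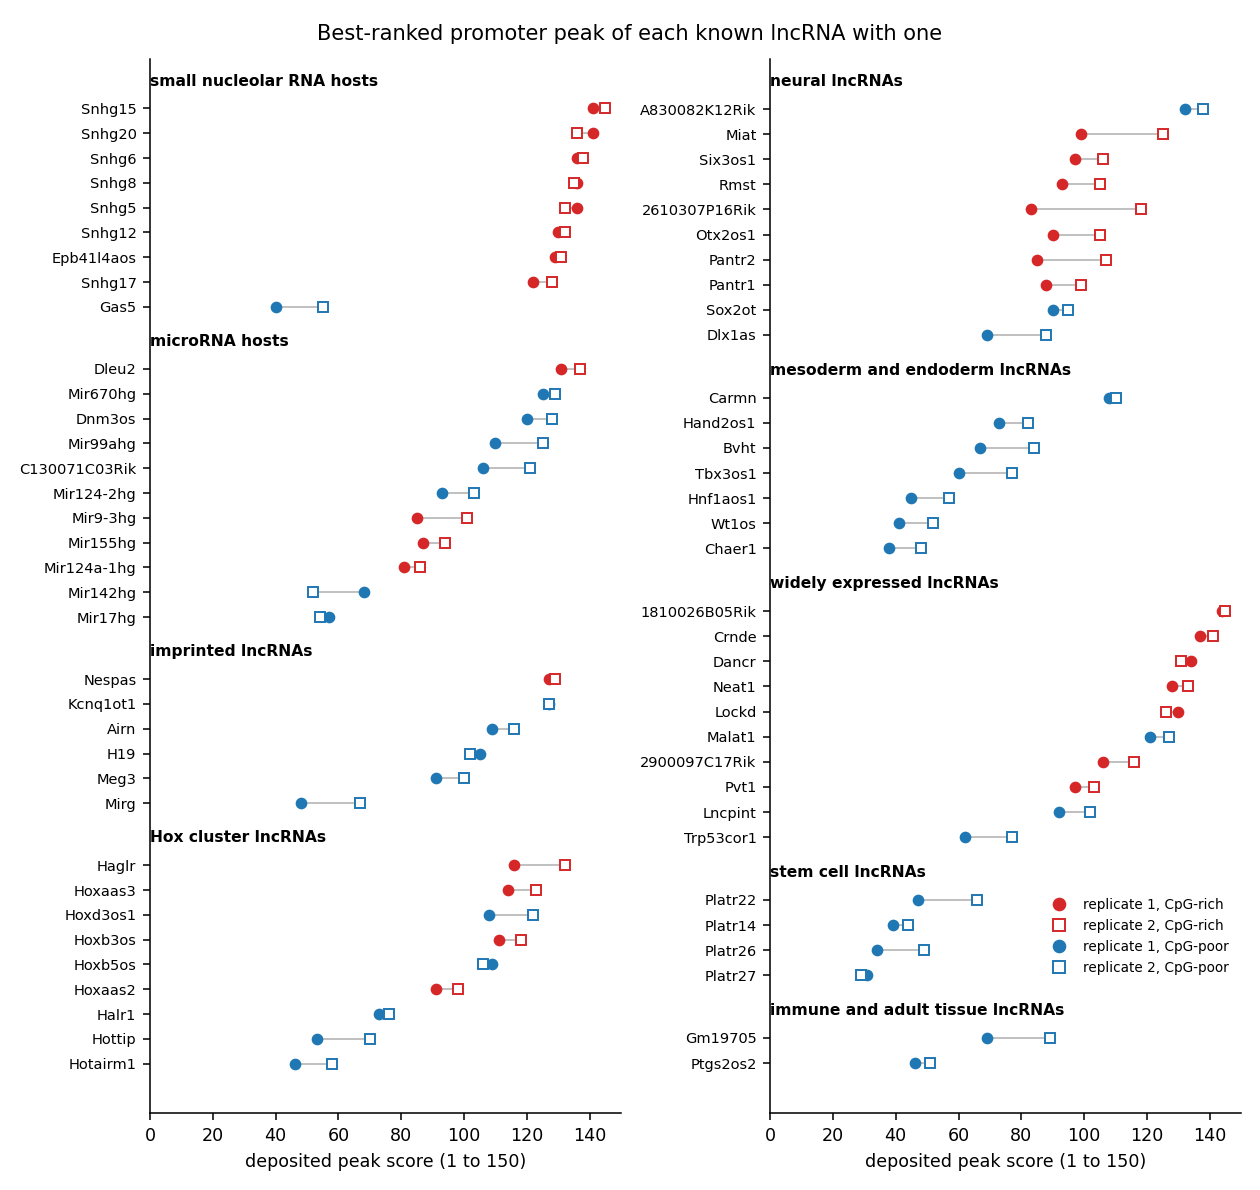
Deposited score in replicate 1 (filled circle) and replicate 2 (open square) of the best-ranked member peak of each known lncRNA with one, grouped by list, red for CpG-rich and blue for CpG-poor peaks. Genes in a pair of lists are drawn once. Small nucleolar RNA hosts other than Gas5 lie at 122 to 145, and the Platr genes lie at 29 to 66.

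Some lncRNA genes had many member peaks. Sox2ot, which surrounds Sox2 on the same strand, had 12 over a span of 578.4 kb and 18 TSSs. Their scores ran from 36 to 90 in replicate 1 (median 50) and from 45 to 95 in replicate 2 (median 52.5), and none was CpG-rich. Hand2os1 had 8, with medians of 43.5 and 56.5, all nearest to Hand2. Next came 1810059H22Rik and 3110039I08Rik with 7 each. The latter, between Sorl1 and Ubash3b, had medians of 100 and 113. With 6 each followed Dleu2 (medians 103.5 and 111, all CpG-rich), Gm26885 near Pim1 (96.5 and 106.5), Mir99ahg (42.5 and 51.5), 9430091E24Rik (37 and 46.5), 1700026F02Rik and Gm35256. The last pair share the same 6 peaks, with medians of 42.5 and 50. Hand2os1 had 32 annotated TSSs and 3110039I08Rik had 40.

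Members often had a developmental transcription factor gene as their nearest coding neighbour. Symbols of 20 regulator families, 450 of the protein-coding genes (2.16%), were the nearest coding gene of 323 members (12.6%), of 7.71% of other distal peaks and of 3.79% of coding promoter peaks. These 323 members belonged to 214 lncRNA genes beside 137 coding genes. The share of members was above that of other distal peaks in each of the 16 families with 5 or more members, a choice that itself favours families with many. Among families with fewer members, it was below in LIM homeobox (0.117% against 0.184%) and Dlx (0.0389% against 0.0400%). The share was also below in the family that holds Six3 and the Eya genes (0.1555% against 0.1965%). In Zic it was above (0.1555% against 0.0616%). The largest sets were zinc finger regulators (58 members), the mixed group of other regulators (36), bHLH (30), Hox and Evx (27), Sox (24) and other homeobox genes (22). For Hox and Evx the share was 1.05% of members and 0.186% of other distal peaks, and for Irx 0.700% and 0.227%.

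This difference moved with base composition and distance. Among CpG-poor peaks the share with a regulator neighbour was 11.4% of members and 7.29% of other distal peaks. Among CpG-rich peaks the order turned, with 17.9% of members and 21.6% of other distal peaks. At 1 to 2.5 kb from a coding TSS 24.7% of members and 7.97% of other distal peaks had a regulator neighbour, and farther away 11.1% and 7.68%. Over genes rather than peaks, 38.9% of the 545 eligible lncRNA genes with a regulator neighbour had a member peak, against 24.7% of the other 6821.

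**Figure D5:**
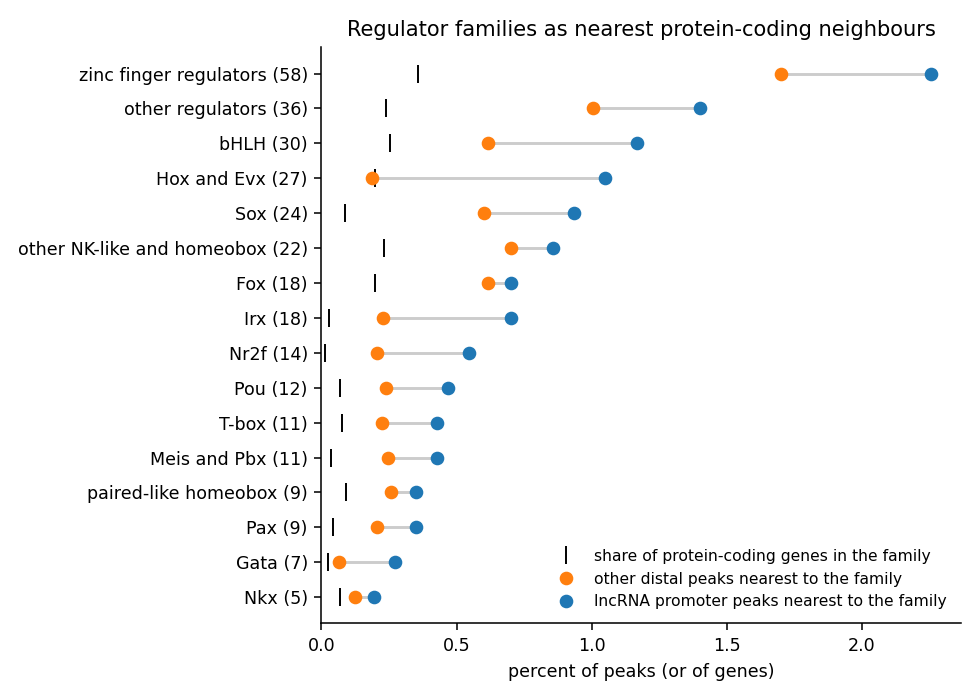
Percent of lncRNA promoter peaks (blue) and of other distal peaks (orange) whose nearest protein-coding gene belongs to each regulator family, with the family's percent of all protein-coding genes as a tick and the number of lncRNA promoter peaks in brackets. Only the 16 families with 5 or more lncRNA promoter peaks are drawn, which favours blue lying to the right, as for Hox and Evx (1.05% against 0.186%).

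Within the families, the best-ranked members were often at lncRNAs close to the regulator. Nr2f1 and Nr2f2, nuclear receptors of neural and mesenchymal tissue, had A830082K12Rik (132 and 138) and, 1.78 kb from Nr2f2, B130024G19Rik (102 and 107), with Gm29683 (93 and 98). G630016G05Rik (129 and 134) lay 1.37 kb from the limb and neural gene Meis2, and 8430419K02Rik (97 and 108) and Gm16141 (86 and 92) were nearest to Meis1. The G630016G05Rik peak was also 186 bp from a RefSeq mRNA start. In the Irx family Crnde was followed by Gm36843 (108 and 112), 195.1 kb from Irx3, and Gm40999 (89 and 107) at Irx1.

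In the bHLH family 4632428C04Rik (135 and 133) and Gm26569 (102 and 115) were 55.3 and 118.3 kb from the Notch target Hes1, and Gm26755 (99 and 117) was 2.44 kb from Neurod1. The Fox family was led by 1700064M15Rik (136 and 145) near Foxn3, B230323A14Rik (94 and 105) at Foxb1 and 9130410C08Rik (91 and 102) at Foxd2. In the T-box family the leading members were 4930588K23Rik (93 and 104) at Tbx1, Tbx3os2 (80 and 105) and Gm33460 (80 and 93) near Eomes. These T-box members were all higher in replicate 2, as were most members.

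The Sox family had Sox6os (101 and 111), 4933431J24Rik (95 and 109) near Sox21 and 2610307P16Rik. In the Pou family Gm30731 (82 and 90) stood 2.11 kb from Pou3f2, beside Pantr1 and Pantr2 at Pou3f3. Paired-like homeobox genes had Otx2os1, Gm10000 (68 and 78) at Gsc and Gm47071 (56 and 82) at the hindlimb gene Pitx1.

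Pax members were Gm12462 (82 and 98) in an intron of Pax5 and a pair nearest to Pax2, 1700039E22Rik (68 and 92) and AC138457.1 (67 and 74). Nkx members were Gm15816 (104 and 113) at Nkx6-3, Gm16764 (94 and 101) at Nkx1-2 and Gm20467 (61 and 70) at Nkx2-3. The leading Gata members were Gm13256 (66 and 82) at Gata3, B230312C02Rik (59 and 93) nearest to Gata5 and Gm13219 (62 and 73), 521.3 kb from Gata3. The Gm13256 peak was 730 bp from a RefSeq mRNA start.

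Among other homeobox genes the leaders were Gm20052 (124 and 126), 69.3 kb from Msx1, 4833413E03Rik (107 and 114) near Pknox1 and Gm20703 (82 and 92) near Tgif1. Zinc finger regulators had Gm3716 (132 and 134), 192.6 kb from Klf3, A730035I17Rik (120 and 127) at Prdm8 and Gm41231 (106 and 129) at Klf12. The Gm41231 peak was 140 bp from a RefSeq mRNA start. The remaining regulators had 1700113A16Rik (141 and 143), 9.90 kb from Mef2d, Gm47061 (122 and 122) in an intron of the neural crest gene Tfap2a and Gm15651 (113 and 129) nearest to Etv5.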

How the data were processed

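DNase-seq peak and hotspot lists of 2 biological replicates were used. Per the file headers and labels the lists refer to mm10, with 1 peak and 1 hotspot list per replicate. No source used here names the aligner or caller. Peaks are 150 bp wide and carry a deposited score from 1 to 150 that no source used here defines, so it serves to rank peaks only. Deposited hotspots carry a −log10 q value that starts at 1.30 and stops at 100. No read counts are in these lists, so depth is unknown.

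TSSs came from GENCODE M21, sequence from the mm10 RefSeq assembly and the annotation check from RefSeq. Each peak was placed by its midpoint with Python 3.11.15, pandas 2.3.3 and numpy 2.4.6, and the assignment was checked on simulated intervals against a direct search. A regulator neighbour is a nearest coding gene whose symbol belongs to 1 of 20 families. The members, gene lists, families and motifs were chosen with earlier results of these data known. Named genes are all list members with a member peak, up to 4 without per list, the 10 best-ranked members, the 10 genes with most member peaks and 3 lncRNAs per regulator family with 5 or more members. Alternatives changed the TSS window, the exclusion distance, the overlap, the score, the TSS set and the replicate.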

Additional observations from a re-analysis of the deposited data

How the results depend on the processing

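The counts of member peaks, of genes with one and of list genes stayed within 1.5 times their value under all 11 alternatives, but member peaks came close to that limit. The 2572 member peaks became 1723 with a TSS window of 250 bp and 3854 with 1000 bp. The 1931 genes ranged from 1379 in the better-scoring 50% of each list to 2459 with 1000 bp. The 68 list genes ranged from 58 with the 5'-most TSS only to 76 without replicate 1. The share of eligible genes with a member peak, 25.8%, was 20.4% with a TSS window of 250 bp, 31.4% with 1000 bp, 18.4% in the better-scoring 50% of each list, 24.0% with the 5'-most TSS only and 28.7% to 30.7% when 1 replicate was left out and the other used alone. The median replicate 1 score was 76 in the better-scoring 50%, which the selection itself raises, and has no value without replicate 1. The CpG-rich share of 17.6% was 18.9% with 250 bp, 15.1% with 1000 bp, 15.6% at over 2500 bp from coding TSSs, 24.0% in the better-scoring 50%, 14.8% to 16.1% with 1 replicate left out and, in an alternative chosen after seeing the data, 16.3% when RefSeq mRNA starts were avoided too. The share within 100 bp of the TSS, 41.1%, was 61.4% with 250 bp and 27.5% with 1000 bp by construction of the window. It was 42.0% at over 2500 bp from coding TSSs, 41.9% with an overlap of 75 bp, 42.7% in the better-scoring 50%, 39.6% with the 5'-most TSS, 40.4% with basic transcripts, 40.0% from the replicate 2 peaks and 38.1% to 39.1% with 1 replicate left out. No paired analysis was possible because there is 1 group and no result comes from a test. A low score or a missing peak is limited by the unknown depth and by the mixture of tissues.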

Other observations

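The X chromosome lies outside the rule, but 57 of its 3887 shared peaks (1.47%) met the same distances, at 36 lncRNA genes, with median scores of 63 and 66. CpG-rich peaks were 35.1% of them. Several belong to the X inactivation centre, which silences 1 X chromosome in female cells, and the samples pooled both sexes. The best peak of Ftx, an activator of Xist, scored 131 in replicate 1 and 119 in replicate 2, and that of Jpx, another activator, 101 and 110. Tsix, the antisense repressor, scored 65 and 65. Xist itself, the RNA that coats the inactive X, had 1 peak of 43 and 55 at 23 bp from a TSS. Firre, a nuclear organising lncRNA, had a peak of 124 and 128 and a pair of low ones at 24 and 43 and at 24 and 40.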
